A study of Homo sapiens with 32 samples.

Results

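The 10 genes described here are inflammatory chemokines and cytokines, CXCL1, CXCL2, CXCL3, CXCL8, CCL20, IL6, IL1A, IL1B and LIF, together with TNFAIP3, a feedback inhibitor of the pathway that drives them. They were taken by name, 10 of the 48804 genes listed in the deposited count table, by a rule that itself used no measured value, although the list was drawn up with earlier results of these data known. In GRCh37, the build of the files, the 4 CXC chemokine genes lie in 1 cluster on chromosome 4, in the order CXCL8 (ENSG00000169429, chr4:74606236-74609433), CXCL1 (ENSG00000163739, chr4:74735110-74737025), CXCL3 (ENSG00000163734, chr4:74902306-74904524) and CXCL2 (ENSG00000081041, chr4:74962757-74964913). The other members are spread over the genome: CCL20 (ENSG00000115009, chr2:228670455-228682280), IL1A (ENSG00000115008, chr2:113531502-113542070), IL1B (ENSG00000125538, chr2:113587328-113594393), IL6 (ENSG00000136244, chr7:22765503-22771621), TNFAIP3 (ENSG00000118503, chr6:138188351-138204451) and LIF (ENSG00000128342, chr22:30636442-30642748). RNA was sequenced from MDA-MB-468 cells, an established triple-negative breast cancer cell line, after treatment with the ionophore antibiotic salinomycin (Sal, 0.5 µM), the Src-family and ABL kinase inhibitor dasatinib (Das, 15 µM), both drugs together (S + D, with 15.5 µM given as the summed concentration) or phosphate-buffered saline (PBS, the control). Each of the 4 treatments was sampled at 24 h and at 72 h, with 4 libraries in each of the 8 conditions, described by the study as biological replicates of this 1 cell line. The labels name no cytokine or bacterial stimulus. Because whole cultures were sequenced, fewer cells expressing a gene and less RNA per cell cannot be told apart.

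CXCL1, CXCL2, CXCL3 and CXCL8 (interleukin-8) are chemokines of the ELR class that attract neutrophils through the receptor CXCR2, and CCL20 attracts CCR6-bearing lymphocytes and dendritic cells. IL6 and LIF signal through receptor complexes that contain gp130 and activate STAT3, while IL1A and IL1B act on the interleukin-1 receptor and are strong inducers of the other members. Transcription of these genes is classically driven by NF-kB, often with AP-1, and their mRNAs are short-lived. TNFAIP3 encodes A20, a ubiquitin-editing enzyme that is itself induced by NF-kB and then dampens the signal.

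The libraries held between 25692561 and 42769687 counted reads. In every condition 3 libraries carry a replicate number (1, 2 or 3) and 1 does not, and the unnumbered libraries stood apart together: their deviations from the condition mean correlated at 0.588 to 0.666 across genes at 24 h and 0.522 to 0.611 at 72 h. In 46 of the 64 combinations of member and condition with more than 3 counts in some library, the unnumbered library had the highest level, so values are given for all 4 libraries with the unnumbered one last, and tests are given with and without these libraries. In keeping with an epithelial line, all 6 epithelial markers were between 195 (CDH1) and 5921 (EGFR) CPM (read counts scaled to library size) in every library. Of 7 leukocyte markers PTPRC, CD3E and LYZ did not exceed 0.132 CPM in any library, while CD14 and CSF1R were present at 2.2 to 32.4 and 4.97 to 17.6 CPM. The summed leukocyte markers ranged from 39.2 to 47.2 CPM in the 72 h controls, 11.4 to 29.5 CPM with Sal, 9.41 to 12.7 CPM with Das and 18.6 to 21.1 CPM with S + D, and at 24 h from 26.5 to 31.4 CPM in the controls, 23.7 to 28.2 CPM with Sal, 16.6 to 20.7 CPM with Das and 12.1 to 13.2 CPM with S + D. The part of this shift in the results below was not tested. The fibroblast sum, which was mostly COL1A1 (COL1A2 was at 0 in 30 and DCN at 0 in 25 of the 32 libraries), ranged from 23.8 to 32.5 CPM in the 72 h controls and 55.5 to 78.1, 33.4 to 68.8 and 68.7 to 122 CPM with Sal, Das and S + D. The sum of the 3 endothelial markers matched was 5.2 to 7.96 CPM in these controls and 0.498 to 2.13, 1.04 to 1.83 and 0.352 to 0.681 CPM in the same treatments. The epithelial sum was 10574 to 11574 CPM in them and 6732 to 7211, 7246 to 9613 and 4663 to 6305 CPM. The part of these shifts in the results was not tested either.

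The promoters are shown first, because the kappa B motif, known as the letters that NF-kB binds, can be read in several of them. Whether these letters had a part in the changes below was not tested. Of the 10 genes, 9 had an entry in the RefSeq promoter table (GRCh38.p14), which runs from 250 bases before to 50 bases after the start of each gene, and the 140 bases before the start are printed 5′ to 3′ on the strand of the gene for the 7 members with the most reads among these. Capitals mark the kappa B motif (searched by its usual consensus on both strands), the AP-1 motif TGANTCA (either strand) and the TATA box TATAAA (strand of the gene), and no 2 kinds of motif overlapped in the stretches shown.
CXCL1, chr4:73869253-73869392, plus strand: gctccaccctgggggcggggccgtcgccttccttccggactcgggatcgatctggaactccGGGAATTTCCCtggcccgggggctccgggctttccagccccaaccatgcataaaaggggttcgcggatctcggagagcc
CXCL2, chr4:74099196-74099335, minus strand: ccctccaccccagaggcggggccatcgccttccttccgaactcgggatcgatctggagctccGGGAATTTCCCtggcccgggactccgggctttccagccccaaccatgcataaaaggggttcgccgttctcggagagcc
CXCL3, chr4:74038690-74038829, minus strand: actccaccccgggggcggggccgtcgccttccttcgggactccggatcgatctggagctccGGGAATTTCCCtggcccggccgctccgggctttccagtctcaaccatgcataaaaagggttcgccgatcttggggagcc
CXCL8, chr4:73740429-73740568, plus strand: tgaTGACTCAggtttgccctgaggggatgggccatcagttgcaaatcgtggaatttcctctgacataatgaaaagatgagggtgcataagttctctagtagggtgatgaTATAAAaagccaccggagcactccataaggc
CCL20, chr2:227813702-227813841, plus strand: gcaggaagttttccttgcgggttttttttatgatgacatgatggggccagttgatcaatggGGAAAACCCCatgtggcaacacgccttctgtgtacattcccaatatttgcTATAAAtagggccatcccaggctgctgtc
IL6, chr7:22727060-22727199, plus strand: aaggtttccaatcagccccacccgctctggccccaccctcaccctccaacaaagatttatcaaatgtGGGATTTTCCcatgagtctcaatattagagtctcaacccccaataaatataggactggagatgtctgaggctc
TNFAIP3, chr6:137867119-137867258, plus strand: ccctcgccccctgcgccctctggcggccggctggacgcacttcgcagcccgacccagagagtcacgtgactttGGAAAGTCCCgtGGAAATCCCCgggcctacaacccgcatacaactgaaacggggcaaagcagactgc

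The kappa B letters were found in 6 of the 9 members with an entry and in 11.3% of all 35116 promoters of that length. The members were taken by name and are known NF-kB genes, so these shares are a description only. In CXCL1, CXCL2 and CXCL3 the same run of capitals began at position -79, -78 and -79, counted from the start site, and matched on both strands. CCL20 held a match on the opposite strand at -79 and a TATA box at -29. IL6 held one kappa B match at -73, and TNFAIP3 held a pair on the opposite strand at -67 and -55. In CXCL8 the letters found were AP-1 at -137 and a TATA box at -31. The search allowed no mismatch with the consensus. The printed CXCL8 stretch also holds ggaatttcc, letters that lie within the kappa B matches of CXCL1, CXCL2 and CXCL3, so a variant of the motif was not counted. The AP-1 letters stood in 7.7% and the TATA box in 7.3% of all promoters. IL1A held AP-1 letters and, in 1 of its entries, TATA box letters at -239. IL1B held none of the 3 motifs in this window, and LIF is named only.

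In the untreated cells at 24 h the members spanned a wide range of levels. Set per kilobase of exon, so that genes of different length can be compared, LIF stood highest with a mean of 11.7 CPM per kilobase, followed by CXCL1 (1.91), TNFAIP3 (1.79) and CXCL8 (1.63), then CCL20 (0.736), CXCL2 (0.66) and CXCL3 (0.228). IL6 was at 0.018 CPM per kilobase, and IL1A had no read in any 24 h library. In the numbered libraries alone LIF (7.34) was followed by TNFAIP3 (1.65) and CXCL1 (1.2), so the order of CXCL1, TNFAIP3 and CXCL8 did not hold beyond the spread between libraries. Most members were thus counted in few reads: the median count over the 32 libraries was 34 for CXCL1, 34.5 for CXCL8, 19.5 for CXCL2, 14 for CCL20, 13.5 for CXCL3 and 5 for IL6, against 307.5 for LIF and 395.5 for TNFAIP3. The counts of CXCL1, CXCL2 and CXCL3 are uncertain where reads were split between them, since 4.57%, 13.4% and 6.01% of their 50-base stretches occur in another of the 3 genes. Antisense genes overlap 9.9% of the exon bases of IL6, 4.4% of LIF and 1.5% of TNFAIP3, and use of strand in the counting is not given in the sources used here.

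**Figure D1:**
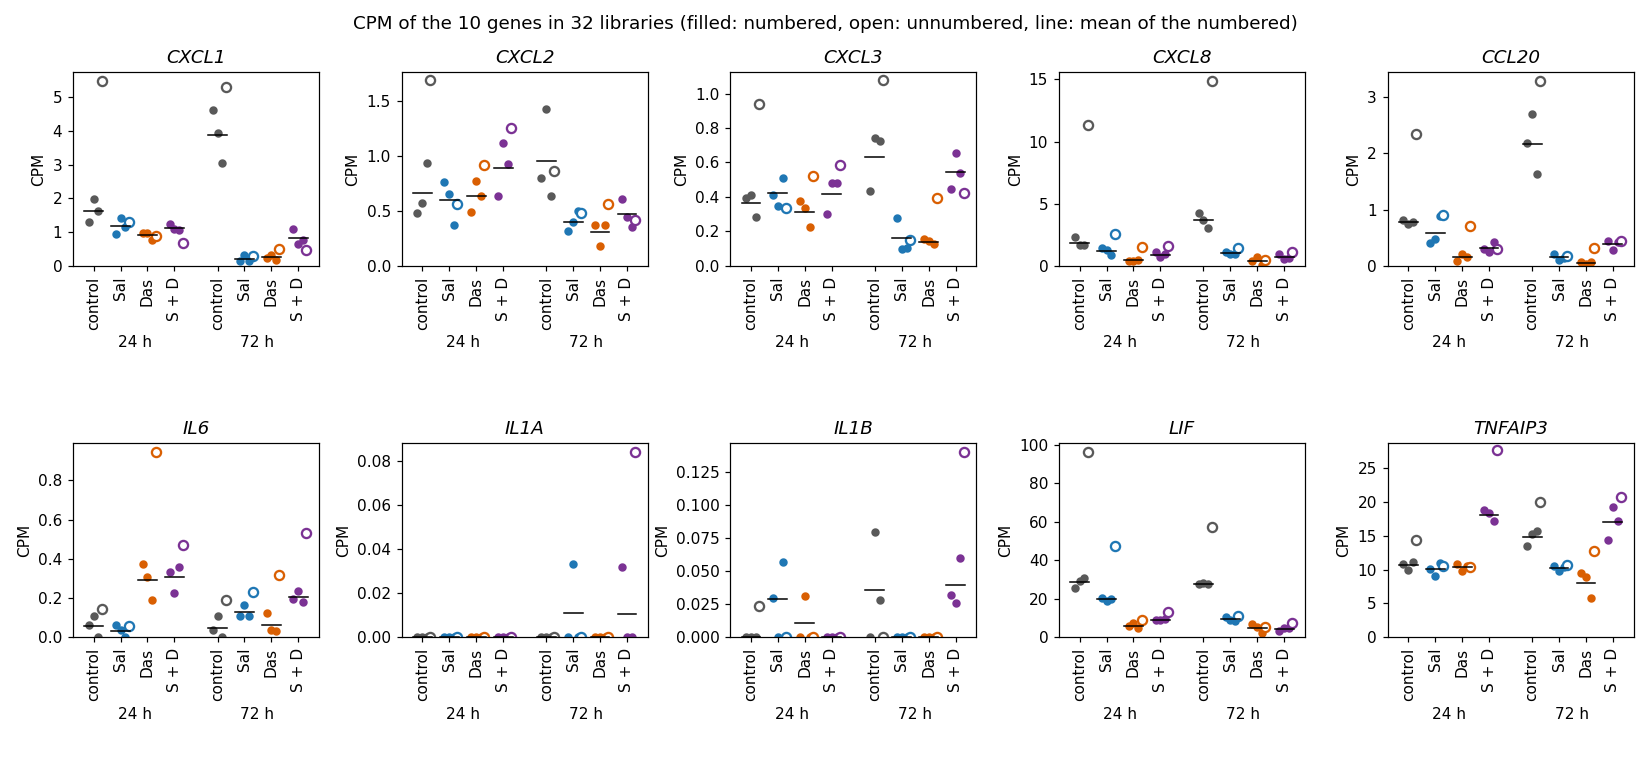
CPM (read counts scaled to library size, linear axis from 0, a separate scale for each gene) of the 10 genes in each of the 32 libraries, by treatment within 24 h and 72 h. Filled points are numbered libraries, open points the unnumbered library and lines the mean of the numbered libraries. The 72 h treated libraries of CXCL1, CXCL8, CCL20 and LIF all sit below the 72 h controls, and the unnumbered control library sits far above the others for CXCL8 and LIF.

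At 72 h either drug alone lowered each of the 7 members that passed the filter on low counts. CXCL1, CXCL2, CXCL3, CXCL8, CCL20, LIF and TNFAIP3 were called lower (edgeR quasi-likelihood test, Benjamini-Hochberg adjusted p under 0.01 over all genes tested), 7 of 7 with Sal and 7 of 7 with Das. Of all 16682 genes tested at 72 h, 26.8% were called lower and 26.3% higher with Sal, and 9.36% lower and 10.5% higher with Das. The median log2 fold change of the 7 members was -2.23 with Sal and -2.90 with Das, against 0.00 and 0.02 over all genes. The treated and control libraries did not overlap for any of the 7 genes with either drug, and both sets of 7 were also called in the numbered libraries alone. A fit of the control and Das libraries only called 4 of the 7, without CXCL2, CXCL3 and TNFAIP3. The share of all genes without overlap is not given here or below, so a lack of overlap describes the members only. The 3 comparisons with the control at each time use the same 4 control libraries.

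CXCL1, a neutrophil chemokine, stood at 4.62, 3.94, 3.06 and 5.3 CPM in the 72 h controls. It was at 0.14, 0.332, 0.142 and 0.279 CPM with Sal and at 0.249, 0.322, 0.186 and 0.49 CPM with Das. All 8 single-drug libraries were thus several times below the lowest control, with 4 to 20 reads each against 110 to 197 in the controls. The log2 fold change was -4.21 ± 0.35 (SE) with Sal (adjusted p = 4.89e-08) and -3.73 ± 0.34 with Das (adjusted p = 6.65e-07). CXCL8, the most studied human neutrophil chemokine, was at 4.28, 3.68, 3.09 and 14.9 CPM in the controls, 1.16, 0.929, 0.956 and 1.47 CPM with Sal and 0.435, 0.715, 0.0621 and 0.514 CPM with Das. The unnumbered control was about 4 times the mean of the others (ratio 4.04), yet the numbered controls alone were also all above every treated library. The log2 fold change was -2.53 ± 0.50 with Sal and -3.91 ± 0.55 with Das, and -1.88 and -3.21 in the numbered libraries.

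The closely related CXCL2 and CXCL3 had smaller estimated falls than CXCL1, a difference between genes that was not tested. CXCL3 was at 0.435, 0.741, 0.723 and 1.08 CPM in the 72 h controls, 0.28, 0.0996, 0.106 and 0.152 CPM with Sal and 0.155, 0.143, 0.124 and 0.392 CPM with Das. Its log2 fold change was -2.23 ± 0.42 with Sal (adjusted p = 1.77e-04) and -1.81 ± 0.40 with Das (adjusted p = 0.00233), and the call with Das was lost without Das library 1 (adjusted p = 0.0117) or 2 (0.0114). CXCL2 was at 0.803, 1.43, 0.639 and 0.862 CPM in the controls, 0.315, 0.398, 0.496 and 0.483 CPM with Sal and 0.373, 0.179, 0.373 and 0.563 CPM with Das. Its log2 fold change was -1.15 ± 0.33 with Sal (adjusted p = 0.00578) and -1.30 ± 0.33 with Das (adjusted p = 0.0065). The Sal call of CXCL2 was lost without control library 2 (adjusted p = 0.0432), Sal library 1 (0.021) or Sal library 2 (0.0166). The Das call of CXCL2 was lost without any of 6 libraries, namely control 1, 2 or the unnumbered one and Das 1, 2 or 3, with adjusted p from 0.0109 to 0.0385. Both genes remained lower in each of these fits.

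CCL20, the ligand of CCR6, fell about as far as CXCL1. Its 72 h control libraries were at 2.18, 2.7, 1.64 and 3.28 CPM, the Sal libraries at 0.21, 0.0996, 0.142 and 0.178 CPM and the Das libraries at 0.0622, 0.0357, 0.0621 and 0.318 CPM. The 3 numbered Das libraries held 1 or 2 reads each, so the size of the fall with Das rests largely on the unnumbered library with 13 reads. The log2 fold change was -3.94 ± 0.43 with Sal (adjusted p = 6.34e-07) and -4.20 ± 0.44 with Das (adjusted p = 3.30e-06), and -5.24 with Das in the numbered libraries.

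LIF, the gp130 cytokine with the most reads here, fell with both drugs at 72 h. It was at 27.6, 28.3, 27.6 and 57.2 CPM in the controls, 10.7, 8.73, 8.5 and 10.7 CPM with Sal and 6.56, 5.25, 1.93 and 5.22 CPM with Das. The numbered controls lay within 1 CPM of each other, and each treated library was below all of them. The log2 fold change was -1.88 ± 0.32 with Sal (adjusted p = 6.04e-05) and -2.90 ± 0.33 with Das (adjusted p = 9.07e-06). TNFAIP3, the feedback inhibitor, fell least of the 7, from 13.5, 15.3, 15.6 and 20.0 CPM in the controls to 10.5, 9.73, 10.4 and 10.7 CPM with Sal and 9.48, 8.83, 5.81 and 12.8 CPM with Das. Its log2 fold change was -0.66 ± 0.19 (adjusted p = 0.00627) and -0.81 ± 0.19 (adjusted p = 0.00408). The Sal call of TNFAIP3 was lost without any 1 of the 8 libraries other than control library 1, with adjusted p from 0.0104 to 0.0265. Its Das call was lost without control library 3 (adjusted p = 0.0101), the unnumbered control (0.0158), Das library 1 (0.0125) or Das library 2 (0.0154).

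With S + D at 72 h, 5 of the 7 tested members were called lower (CXCL1, CXCL2, CXCL8, CCL20 and LIF), and CXCL3 and TNFAIP3 were not called. Over all genes 27.9% were called lower and 27.0% higher. CXCL1 was at 1.09, 0.654, 0.775 and 0.477 CPM with S + D, which is below the controls but above the level with either drug alone in the numbered libraries, and its log2 fold change against the control was -2.52 ± 0.30 (adjusted p = 1.56e-06). CCL20 was at 0.448, 0.288, 0.417 and 0.449 CPM, with a log2 fold change of -2.62 ± 0.38 (adjusted p = 1.09e-05). CXCL8 was at 0.928, 0.55, 0.596 and 1.15 CPM (-3.02 ± 0.51, adjusted p = 5.67e-05) and LIF at 3.1, 4.58, 4.71 and 7.21 CPM (-2.86 ± 0.33, adjusted p = 1.05e-06). These 4 genes did not overlap with the controls in any library and were also called in the numbered libraries alone.

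CXCL2, CXCL3 and TNFAIP3 were the members nearest to the control with S + D at 72 h. CXCL2 was at 0.608, 0.445, 0.358 and 0.421 CPM, all below the controls, with a log2 fold change of -1.05 ± 0.33 (adjusted p = 0.00927). That call was lost in the numbered libraries (adjusted p = 0.0183) and without any 1 of 6 libraries, namely control 1, 2 or the unnumbered one and S + D 2, 3 or the unnumbered one, with adjusted p from 0.0125 to 0.0746. CXCL3 was at 0.448, 0.654, 0.537 and 0.421 CPM and overlapped with the controls (-0.55 ± 0.36, adjusted p = 0.189). TNFAIP3 was at 14.4, 19.3, 17.3 and 20.8 CPM and also overlapped with them (0.14 ± 0.19, adjusted p = 0.541).

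**Figure D2:**
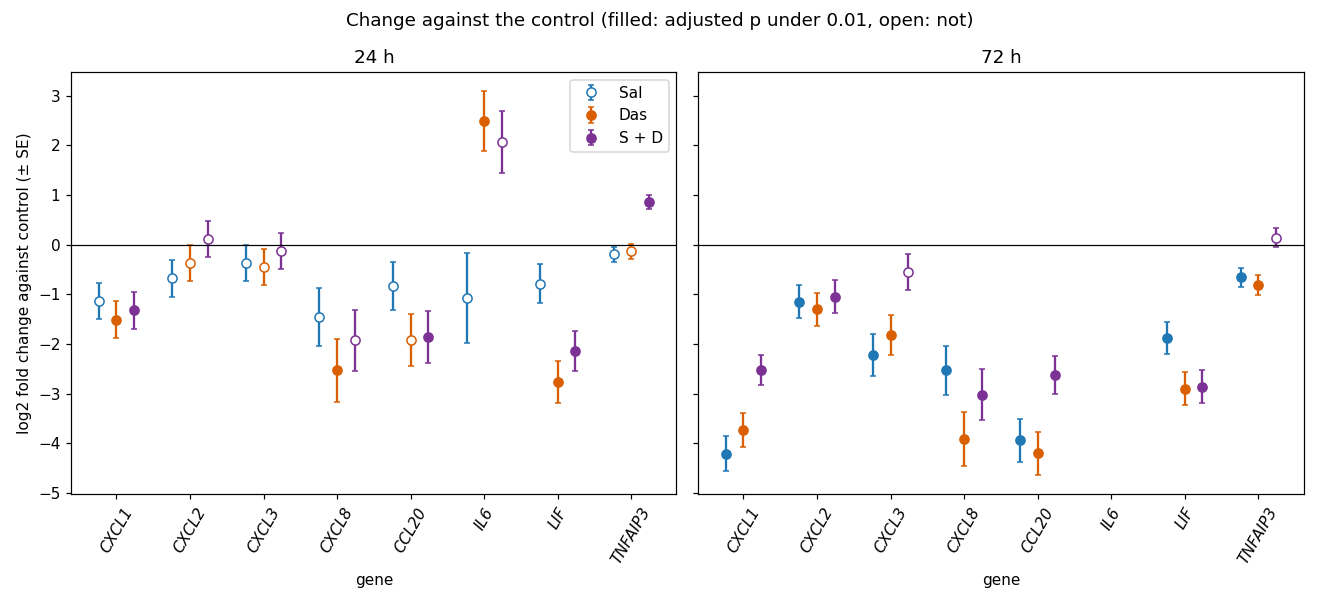
Log2 fold change against the control at the same time (points, 4 libraries against 4) of the 8 genes tested at 24 h and the 7 tested at 72 h, where IL6 had too few reads. Bars are ± SE derived from the edgeR F statistic, with the spread estimated over all 16 libraries of that time. Filled points passed an adjusted p of 0.01. At 72 h the single-drug points are all filled and below 0, and CXCL3 and TNFAIP3 with S + D are open.

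At 24 h Das alone lowered CXCL1, CXCL8 and LIF and raised IL6, so that 3 of the 8 tested members were called lower and 1 higher. Of the 16357 genes tested at 24 h, 6.88% were called lower and 6.99% higher with Das. A fit of the control and Das libraries only called 1 member, LIF. LIF fell from 25.6, 29.2, 30.5 and 96.3 CPM in the controls to 5.8, 7.17, 4.68 and 8.68 CPM, a log2 fold change of -2.76 ± 0.42 (adjusted p = 1.68e-04) and of -2.23 ± 0.11 in the numbered libraries. All 4 Das libraries were below all controls, and the unnumbered control was 3.39 times the mean of the numbered ones. CXCL8 was at 2.3, 1.65, 1.66 and 11.3 CPM in the controls and 0.433, 0.431, 0.453 and 1.49 CPM with Das. Its unnumbered library was 6.05 times the mean of the others in the control and 3.39 times with Das, and within the numbered libraries the fall was -2.05 ± 0.26 (adjusted p = 3.19e-06), against -2.53 ± 0.63 (adjusted p = 0.00804) over all 4.

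CXCL1 at 24 h was at 1.3, 1.97, 1.63 and 5.48 CPM in the controls and 0.98, 0.985, 0.754 and 0.873 CPM with Das, a log2 fold change of -1.51 ± 0.37 (adjusted p = 0.00715) that was -0.81 ± 0.22 in the numbered libraries (adjusted p = 0.00497). CCL20 was at 0.817, 0.74, 0.784 and 2.35 CPM in the controls and 0.0865, 0.216, 0.151 and 0.708 CPM with Das. The groups did not overlap, but the fold change of -1.92 ± 0.53 missed the threshold over all libraries (adjusted p = 0.0141) and passed it in the numbered libraries (-2.32 ± 0.40, adjusted p = 9.61e-05) and with a replicate block (adjusted p = 3.14e-04). DESeq2 called CCL20 (adjusted p = 0.00256) but gave no p for CXCL8 in any 24 h comparison. Without the unnumbered control alone, CXCL1 (adjusted p = 0.0167) and CXCL8 (0.0424) were no longer called. The call of CXCL1 was also lost without any 1 Das library (up to 0.0233, without Das 3), and that of CXCL8 without Das 1, 2 or 3 (up to 0.0301, without Das 1), while CCL20 was called without the unnumbered Das library (9.45e-04).

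With S + D at 24 h CXCL1, CCL20 and LIF were called lower and TNFAIP3 higher, again 3 and 1 of the 8 tested members, against 16.5% lower and 17.1% higher over all genes. LIF was at 8.92, 8.75, 9.28 and 13.2 CPM (-2.14 ± 0.41, adjusted p = 4.71e-04; -1.65 in the numbered libraries). CCL20 was at 0.301, 0.256, 0.419 and 0.293 CPM (-1.85 ± 0.53, adjusted p = 0.00896) and CXCL1 at 1.24, 1.09, 1.08 and 0.674 CPM (-1.32 ± 0.37, adjusted p = 0.00766). CXCL8 was at 1.08, 0.703, 0.928 and 1.64 CPM, below all controls, with -1.93 ± 0.61 (adjusted p = 0.0167) over all libraries and -1.02 ± 0.23 (adjusted p = 6.09e-04) in the numbered ones, and passed with a replicate block (adjusted p = 9.15e-05). CXCL1 lost its call in the numbered libraries (-0.52, adjusted p = 0.0366), without the unnumbered control (0.0265) and without any 1 S + D library (0.0127 to 0.0239). CCL20 lost it without the unnumbered control (adjusted p = 0.0482) and without any 1 S + D library (0.0156 to 0.0271), and CXCL8 gained it without control library 2 (0.00939) or 3 (0.0098).

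IL6 was called higher with Das at 24 h, where CXCL1, CXCL8 and LIF were called lower. It was at 0.0605, 0.11, 0 and 0.141 CPM in the 24 h controls, 0 to 6 reads a library, and at 0.375, 0.308, 0.189 and 0.944 CPM with Das, 5 to 40 reads. With S + D it was at 0.331, 0.224, 0.359 and 0.469 CPM, 7 to 16 reads, and with Sal alone at 0.0589, 0.0347, 0 and 0.056 CPM, no more than 2 reads. All Das and all S + D libraries were above every control, although the lowest Das library stood close to the highest control. The log2 fold change was 2.49 ± 0.60 with Das (adjusted p = 0.0066) and 2.07 ± 0.63 with S + D (adjusted p = 0.0131). Both passed in the numbered libraries, at 2.29 ± 0.63 (adjusted p = 0.00532) and 2.32 ± 0.62 (adjusted p = 0.00306), as did S + D with a replicate block (adjusted p = 0.00115). The Das call was lost without control 1, 2 or 3 or Das library 1 or the unnumbered one, with adjusted p from 0.0117 to 0.0295. IL6 remained low throughout, at 40 reads in its highest library. The filter on low counts was set at a minimum count of 10, which at 24 h only Das and S + D libraries reached. IL6 was thus tested at 24 h only through the groups where it was high, so its calls are not independent of the filter.

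TNFAIP3 rose only with the combination at 24 h among the 3 treatments. Its controls were at 10.8, 9.9, 11.2 and 14.3 CPM, the Sal libraries at 10.1, 9.01, 11 and 10.5 CPM, the Das libraries at 10.8, 9.85, 10.5 and 10.3 CPM and the S + D libraries at 18.8, 18.3, 17.1 and 27.7 CPM. Every S + D library was above every library of the other 3 treatments. With S + D the log2 fold change was 0.86 ± 0.15 against the control (adjusted p = 1.78e-04), 1.05 ± 0.15 against Sal (adjusted p = 9.51e-05) and 0.99 ± 0.15 against Das (adjusted p = 3.71e-04). With Sal and Das alone it was -0.20 ± 0.15 and -0.14 ± 0.15 (adjusted p = 0.428 and 0.567). The S + D change was 0.78 ± 0.08 over the numbered libraries.

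Sal alone at 24 h gave no call among the 8 tested members, against 4.55% of all genes higher and 2.23% lower. At an unadjusted p under 0.05 it gave 2, and the share of all genes at that cutoff is not given here or below. DESeq2 called 0 at an adjusted p under 0.01, without an adjusted p for CXCL8 and IL6. The log2 fold changes ran from -1.46 ± 0.59 for CXCL8 to -0.20 ± 0.15 for TNFAIP3, with a median of -0.81. LIF was at 20.6, 19, 19.8 and 47.4 CPM with Sal, and each numbered Sal library was below each control. In the numbered libraries LIF was called lower (-0.51 ± 0.10, adjusted p = 4.33e-04) and CXCL8 was not (-0.60 ± 0.22, adjusted p = 0.0378). With a replicate block both passed (adjusted p = 0.00641 for LIF and 0.00355 for CXCL8). CXCL2 and CXCL3 gave no call with any drug at 24 h, with log2 fold changes between -0.68 and 0.11 for CXCL2 and between -0.45 and -0.13 for CXCL3. Over the numbered libraries CXCL3 stood at 0.24 with Sal and 0.22 with S + D, on the other side of 0 and also not called.

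**Figure D3:**
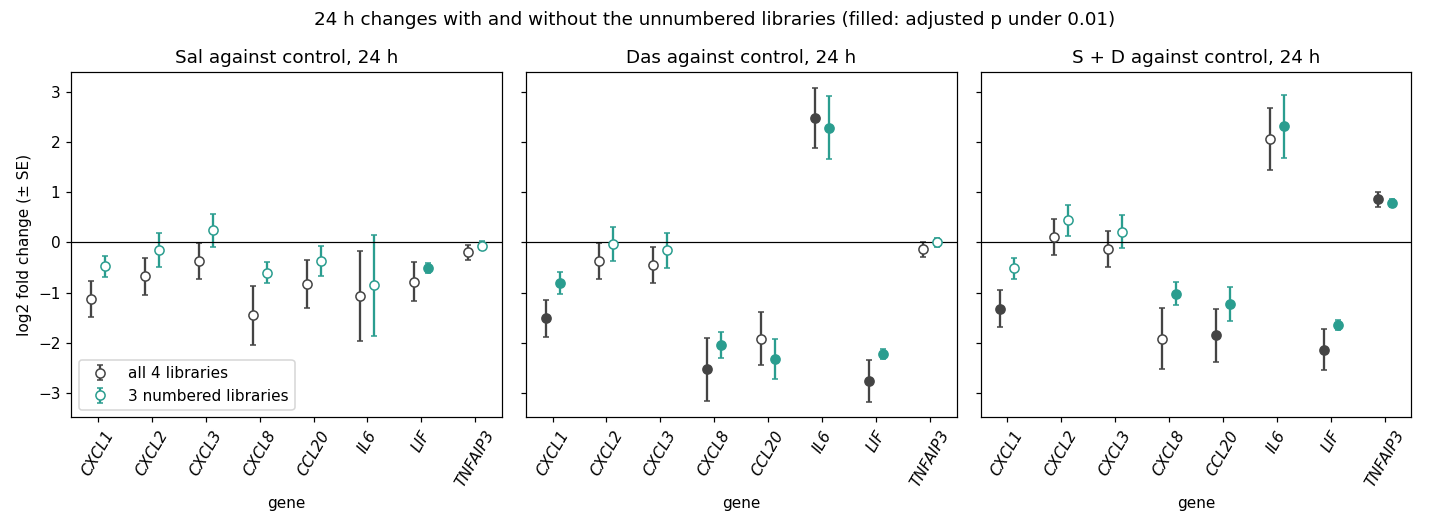
Log2 fold change (± SE) against the 24 h control for the 8 tested genes over all 4 libraries a condition (dark) and over the 3 numbered libraries (green), filled where the adjusted p was under 0.01. LIF with Sal, CCL20 with Das, and CXCL8 and IL6 with S + D are filled for the numbered libraries only, while CXCL1 with S + D is filled for all 4 only.

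The combination was compared with each drug alone to see whether adding the other drug moved the members further. Against Sal at 24 h it raised IL6 (log2 fold change 3.14 ± 0.73, adjusted p = 0.00548) and TNFAIP3, 2 of 8, where 5.83% of all genes were called higher and 7.06% lower. The IL6 call was lost without Sal library 1, 2 or 3 or S + D library 1, 3 or the unnumbered one (adjusted p from 0.0127 to 0.0209). As given above, IL6 passed the filter at 24 h only through Das and S + D libraries. LIF was lower in all 4 S + D libraries than in any Sal library, at -1.36 ± 0.40 (adjusted p = 0.022), and passed in the numbered libraries (-1.14 ± 0.11, adjusted p = 6.10e-08) and with a replicate block (adjusted p = 3.73e-05). Against Das at 24 h TNFAIP3 alone was called (1 of 8 higher, against 4.03% of all genes higher and 4.46% lower), and in the numbered libraries also CXCL8 (1.03 ± 0.29, adjusted p = 0.00794) and LIF (0.58 ± 0.12, adjusted p = 6.97e-04).

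At 72 h S + D left CXCL1 higher than either drug alone did. Against Sal CXCL1 was the 1 member of 7 called (higher, 1.70 ± 0.37, adjusted p = 0.0088), where 1.42% of all genes were called higher and 1.59% lower. The libraries did not overlap for CXCL1, CXCL3 (1.68 ± 0.43, adjusted p = 0.0224), CCL20 (1.32 ± 0.48, adjusted p = 0.1) and TNFAIP3 (0.80 ± 0.19, adjusted p = 0.0163), all higher with S + D, and for LIF, lower with S + D (-0.97 ± 0.32, adjusted p = 0.0712). With a replicate block TNFAIP3 passed as well (adjusted p = 0.00297). Without any 1 of the 8 libraries other than the unnumbered S + D library, the CXCL1 call was lost (adjusted p from 0.0125 to 0.0342).

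Against Das at 72 h CXCL1 (1.21 ± 0.35, adjusted p = 0.00913) and TNFAIP3 (0.95 ± 0.19, adjusted p = 7.63e-04) were called higher, 2 of 7, where 14.3% of all genes were called higher and 17.7% lower. In the numbered libraries CXCL3 (1.92 ± 0.43, adjusted p = 0.00214) and CCL20 (2.72 ± 0.50, adjusted p = 5.61e-04) also passed, and each did so without the unnumbered Das library alone (adjusted p = 0.00201 for CXCL3 and 1.51e-04 for CCL20). CCL20 passed with a replicate block too (adjusted p = 0.00446). The CXCL1 call was lost without any 1 of the numbered Das or S + D libraries (adjusted p from 0.0137 to 0.0359). LIF was level between S + D and Das (0.04 ± 0.32, adjusted p = 0.927).

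The interaction of the drugs was tested directly, as the log2 fold change with S + D minus the sum of the log2 fold changes with Sal and with Das. At 72 h it was positive for 6 of the 7 members by the same threshold (CXCL1, CXCL3, CXCL8, CCL20, LIF and TNFAIP3), where 3.43% of all genes had a positive and 4.09% a negative interaction. The level with S + D thus lay above the sum of the single-drug effects. The sum was -7.94 for CXCL1 against a measured -2.52, an interaction of 5.42 ± 0.50 (adjusted p = 7.01e-06). For CCL20 the sum was -8.14 against -2.62 (interaction 5.52 ± 0.65, adjusted p = 6.33e-05). A level at these sums would be 0.596 reads a library for CXCL1 and 0.3 for CCL20, where the S + D libraries held means of 25.5 and 13.8 reads, so the sums lie below what 1 read can show.

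For CXCL3 and CXCL8 the level at the sum was also within the 3 reads that a count of 0 allows, while for LIF and TNFAIP3 it could be counted. It would be 1.56 reads for CXCL3 against a mean of 18 measured, and the interaction was 3.49 ± 0.59 (adjusted p = 0.00102). For CXCL8 it would be 2.58 reads against 27.8, with an interaction of 3.42 ± 0.75 (adjusted p = 0.00538). LIF, with the sum at 44.3 reads against 172, had an interaction of 1.93 ± 0.45 (adjusted p = 0.00786), and TNFAIP3, at 202 reads against 627, one of 1.61 ± 0.27 (adjusted p = 0.00107). LIF missed the threshold in the numbered libraries (1.45 ± 0.42, adjusted p = 0.0215) and the other 5 passed. LIF also lost its call without any 1 of 11 of the 16 libraries (all but Sal unnumbered, Das 1, 3 and unnumbered, and S + D 1), with adjusted p up to 0.0195. CXCL8 lost it without any of Sal 1, 2 or 3, Das 1, or S + D 1 or the unnumbered one (up to 0.0138). CXCL2, at 1.40 ± 0.48, was not called (adjusted p = 0.0509).

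**Figure D4:**
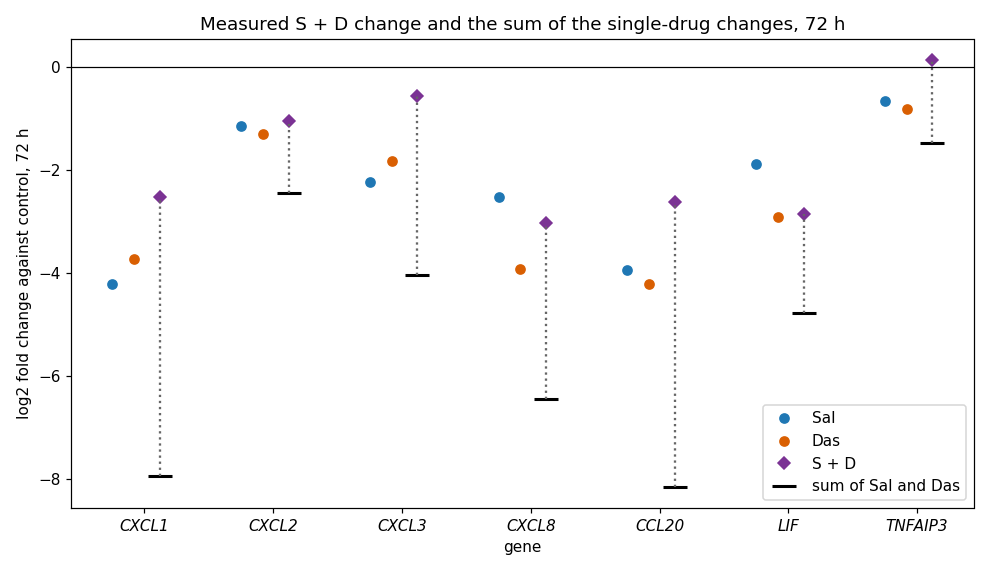
Log2 fold change against the control at 72 h of the 7 tested genes for each treatment, and the sum of the Sal and Das values (black bar). The dotted line is the interaction, longest for CXCL1 (5.42) and CCL20 (5.52) and shortest for CXCL2 (1.40), and each measured S + D value lies above its sum.

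At 24 h no member had a called interaction, and over all genes 0.0% had a positive and 0.0306% a negative one. At an unadjusted p under 0.05 there were 5 members. DESeq2 called 1, TNFAIP3 (adjusted p = 6.86e-05), and otherwise gave an adjusted p only for CXCL1 (0.342) and LIF (0.29). The estimates were all positive, from 0.65 ± 0.99 for IL6 to 2.06 ± 0.88 for CXCL8. TNFAIP3 had 1.19 ± 0.21 (adjusted p = 0.0214) and passed with a replicate block (adjusted p = 9.36e-04). In the numbered libraries TNFAIP3 (0.84 ± 0.12, adjusted p = 1.81e-04), LIF (1.09 ± 0.15, adjusted p = 1.51e-04) and CXCL8 (1.63 ± 0.36, adjusted p = 0.0068) passed. That fit called 827 of all genes in either direction, against 5 in the fit of all libraries.

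The interleukin-1 genes were nearly silent in these cells. IL1A, an alarmin cytokine, had no read in 29 of the 32 libraries and at most 3 in the others, 1 in a Sal library and 1 and 3 in S + D libraries at 72 h, and was not tested. IL1B, the secreted inflammasome product, had no read in 22 libraries. It was seen in all 4 S + D libraries at 72 h with 1, 1, 2 and 5 reads and in none of the 72 h Sal or Das libraries, while the 72 h controls held 0, 3, 1 and 0 reads. S + D against the control at 72 h differed by 0.0377 CPM (exact permutation test, two-sided, p = 0.286). A count of 0 allows up to 3 reads in a library, for counting error only, so differences of this size were not detectable at this depth. IL6 at 72 h was also below the filter on low counts. It was at 0.0335, 0.106, 0 and 0.188 CPM in the controls and 0.105, 0.166, 0.106 and 0.229 CPM in the Sal libraries. The Das libraries were at 0.124, 0.0357, 0.0311 and 0.318 CPM and the S + D libraries at 0.192, 0.236, 0.179 and 0.533 CPM. The lowest S + D library lay just under the highest control, and the group means differed by 0.203 CPM (exact permutation test, two-sided, p = 0.0571), and the differences with Sal (0.0695 CPM, exact p = 0.257) and Das (0.0454 CPM, exact p = 0.6) were smaller. The smallest p that 4 against 4 libraries allow is 0.0286.

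The control cells were compared between the times, and no member was called, against 2.76% of all 17227 genes tested. At an unadjusted p under 0.05 there were 3, and DESeq2 called 0, with no adjusted p for IL6. In the numbered libraries CXCL1 (1.23 ± 0.21, adjusted p = 2.65e-04) and CCL20 (1.47 ± 0.26, adjusted p = 2.80e-04) were higher at 72 h than at 24 h. CXCL1 was likewise called without the unnumbered 24 h control alone (adjusted p = 0.00299), and over all libraries it stood at 0.69 ± 0.32 (adjusted p = 0.205). CCL20, at 1.05 ± 0.42 over all libraries (adjusted p = 0.131), passed with a replicate block (adjusted p = 0.00668). LIF was level between the times in the numbered controls, at 28.4 ± 2.51 CPM and 27.8 ± 0.415 CPM (SD, n = 3).

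The response to Sal grew between 24 h and 72 h for CXCL1 (-3.08 ± 0.53, adjusted p = 5.36e-05) and CCL20 (-3.11 ± 0.69, adjusted p = 9.32e-04), where the difference between the 2 responses was tested and 21.9% of all genes were called in either direction. CXCL3 was close (-1.86 ± 0.56, adjusted p = 0.0109) and passed with LIF in the numbered libraries (adjusted p = 9.04e-04 and 0.00591) and with a replicate block (0.00295 and 0.0096). CXCL3 also passed without the unnumbered 24 h control (adjusted p = 0.00121), the unnumbered 24 h Sal library (0.00925), 72 h control 1 (0.00638) or 72 h Sal library 1 (0.00493), and LIF without the unnumbered 24 h control (0.00367). For Das no member was called, against 0.226% of all genes (4 members at an unadjusted p under 0.05, and CXCL1 by DESeq2 with adjusted p = 0.00459), and for S + D none, against 16.3% (3 members at an unadjusted p under 0.05, and 0 by DESeq2). With CXCL1 the Das difference was -2.19 ± 0.51 (adjusted p = 0.0296) and -3.11 ± 0.39 (adjusted p = 1.80e-05) in the numbered libraries, where CCL20 and TNFAIP3 passed too. For this difference the numbered libraries called 607 of all genes, against 39 over all libraries. Without the unnumbered 24 h control alone CXCL1 passed for Das (adjusted p = 2.92e-04) and for S + D (9.30e-04). For S + D the numbered libraries called CXCL1 (-1.68 ± 0.33) and LIF (-1.09 ± 0.32), and a replicate block called TNFAIP3 (adjusted p = 0.00678) for S + D and CXCL1 (adjusted p = 0.00709) for Das.

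The other genes of these pathways were taken from 8 lists of 138 genes, of which 133 were found in the table, and each gene of them named below as changed was also called in the numbered libraries alone. Among 17 other chemokine ligands, 6 were tested, and 1, 4 and 5 were lower at 24 h with Sal, Das and S + D and 5 with each treatment at 72 h, with none higher. Without the unnumbered libraries 7 were tested at 24 h, with 3, 4 and 5 lower and 1 higher in each comparison, and the counts at 72 h were the same. The numbered libraries also called more of all genes at 24 h. With Sal, Das and S + D they called 3828, 6382 and 9442 in either direction, against 1109, 2268 and 5498 over all 4. The shares over all genes given beside each list are those of all 4 libraries. Over all genes the shares called lower were 2.23%, 6.88% and 16.5% at 24 h and 26.8%, 9.36% and 27.9% at 72 h with Sal, Das and S + D, and those called higher 4.55%, 6.99% and 17.1%, and 26.3%, 10.5% and 27.0%. CCL22, which attracts regulatory T cells through CCR4, fell from 45.6 ± 13.1 CPM in the 72 h controls to 2.74 ± 0.659 CPM with Sal, 5.68 ± 3.65 with Das and 1.23 ± 0.219 CPM with S + D (mean ± SD, n = 4), a log2 fold change with S + D of -5.22 ± 0.40. CX3CL1, the membrane-bound chemokine fractalkine, went from 176 ± 16.2 CPM to 31.2 ± 5.11, 60.7 ± 10.6 and 33.7 ± 2.95 CPM. The mucosal chemokine CXCL17 fell with S + D from 5.05 ± 0.858 to 0.0823 ± 0.078 CPM. The median log2 fold change of the 6 was -3.01, -1.96 and -3.81 at 72 h with Sal, Das and S + D, against 0.00, 0.02 and 0.01 over all genes.

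Among 25 other cytokines calls went both ways. At 72 h 13 were tested, with 4 higher and 6 lower in Sal, 2 and 4 in Das and 5 and 4 in S + D libraries, and at 24 h 12 were tested, with 0 and 0, 2 and 0, and 4 and 2. At 24 h in the numbered libraries they were 0 and 1, 5 and 1, and 4 and 4. Over all genes 26.3% were higher and 26.8% lower with Sal and 27.0% and 27.9% with S + D at 72 h. TNF, the classical NF-kB inducer, fell with Das at 72 h from 2.07 ± 0.375 to 0.249 ± 0.194 CPM. IL12A, a subunit of interleukin-12 and interleukin-35, fell from 2.94 ± 0.864 to 0.133 ± 0.0737 CPM with Sal and 0.119 ± 0.0964 CPM with S + D. TSLP, an epithelial alarmin, rose from 1.08 ± 0.448 CPM to 7.83 ± 2.86, 3.57 ± 1.13 and 9.99 ± 2.21 CPM with Sal, Das and S + D. IL23A, a subunit of interleukin-23, rose from 0.198 ± 0.14 to 2.01 ± 0.383 CPM with Sal and to 1.13 ± 0.251 CPM with S + D. IL1RN, the natural antagonist of the interleukin-1 receptor, rose at 24 h from 13.2 ± 1.01 CPM to 34.6 ± 6.83 with Das and 77.2 ± 11 CPM with S + D. IL34, a ligand of CSF1R, fell with Das at 72 h (log2 fold change -1.52 ± 0.24).

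Of 18 receptors, 12 were tested at 24 h and 11 at 72 h. At 24 h 1, 2 and 3 were higher and 0, 1 and 2 lower with Sal, Das and S + D, and at 72 h 1, 1 and 2 were higher and 4, 4 and 5 lower, against 26.8%, 9.36% and 27.9% of all genes lower and 26.3%, 10.5% and 27.0% higher. With Sal at 24 h 2 were higher in the numbered libraries. IL6R, the ligand-binding receptor of IL6, rose in all 6 comparisons, from 2.1 ± 0.388 CPM in the 24 h controls to 5.19 ± 2.9, 4.95 ± 0.851 and 15.9 ± 3.63 CPM and from 2.48 ± 1.04 CPM at 72 h to 26 ± 1.56, 11.1 ± 6.23 and 47.6 ± 5.45 CPM. IL11RA rose with Das and S + D at 24 h (log2 fold changes 0.89 ± 0.14 and 0.74 ± 0.14), and LIFR, the receptor of LIF, rose with S + D at 24 h (0.53 ± 0.14). OSMR, a partner of gp130, fell at 72 h from 79.7 ± 3.63 CPM to 47.5 ± 10.9, 40.8 ± 7.57 and 33.8 ± 7.99 CPM. TLR2, a receptor for bacterial lipoproteins, fell from 1.81 ± 0.366 CPM to 0.0991 ± 0.0544, 0.347 ± 0.174 and 0.385 ± 0.183 CPM.

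Calls in the NF-kB signalling core went in both directions with Sal and S + D at 72 h and with S + D at 24 h, and were all lower in the other 3 comparisons. All 20 genes of it that were found were tested, and at 72 h 5 were higher and 7 lower in Sal, 0 and 5 in Das and 3 and 6 in S + D libraries. Over all genes 26.3% were higher and 26.8% lower in Sal, 10.5% and 9.36% in Das and 27.0% and 27.9% in S + D libraries, so that the 5 and 7 of 20 with Sal were near the background. At 24 h 0 and 2, 0 and 2, and 1 and 4 were called, and in the numbered libraries 0 and 4, 2 and 6, and 4 and 5. Falls at 72 h included IRAK2, a kinase of the interleukin-1 receptor complex at low level (1.08 ± 0.297 CPM in the controls and 0.0881 ± 0.0688, 0.186 ± 0.095 and 0.144 ± 0.109 CPM with Sal, Das and S + D), and RELB, a subunit of the non-canonical pathway (18.6 ± 2.77 CPM, against 5.65 ± 1.69, 5.3 ± 2.53 and 5.8 ± 1.69 CPM). IRAK1 fell with Sal at 72 h (-1.50 ± 0.16) and at 24 h with Sal (-0.45 ± 0.08) and S + D (-0.80 ± 0.08). The adaptor MYD88 fell at 24 h with all 3 treatments (-0.45 ± 0.09, -0.37 ± 0.09 and -0.88 ± 0.09) and with S + D at 72 h (-1.15 ± 0.15). MAP3K14, the kinase NIK, fell with Das (-0.76 ± 0.15) and S + D (-0.74 ± 0.15) at 24 h and with Das at 72 h (-0.82 ± 0.13).

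Among the inhibitors and feedback genes, to which TNFAIP3 belongs by function, 13 were tested, with 2 and 0, 0 and 3, and 3 and 3 called higher and lower at 24 h with Sal, Das and S + D, and 3 and 6, 1 and 5, and 3 and 7 at 72 h. Over all genes 17.1% were higher and 16.5% lower with S + D at 24 h, and 26.3% higher and 26.8% lower with Sal at 72 h, so that the 3 and 3 of 13 and the 3 higher of 13 were near the background. At 24 h in the numbered libraries 4, 2 and 4 were higher and 2, 5 and 8 lower. IRAK3, an inactive kinase that blocks signalling from the interleukin-1 and Toll-like receptors, rose from 5.73 ± 0.64 CPM at 72 h to 63.3 ± 15, 20.0 ± 13.8 and 30.7 ± 6.58 CPM. CYLD, a deubiquitinase that acts on the same pathway as A20, rose at 24 h with Sal (0.77 ± 0.13) and S + D (0.88 ± 0.13). NFKBIZ, an inducible nuclear IkB that promotes IL6 transcription, fell at 72 h from 99.7 ± 14.9 CPM to 18.2 ± 3.75, 34.2 ± 9.33 and 11.5 ± 3.52 CPM. NFKBIE fell with Sal at 72 h (-1.89 ± 0.26) and BCL3 with S + D at 72 h (-2.46 ± 0.19). ZC3H12A, the RNase regnase-1 that degrades IL6 mRNA, fell with Das at 24 h (-0.68 ± 0.17) and 72 h (-1.10 ± 0.20), and NFKBID with Das at 24 h (-0.37 ± 0.09).

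The targets of NF-kB other than cytokines mostly fell. At 72 h 10, 11 and 10 of 13 tested were lower with Sal, Das and S + D and 1, 0 and 1 higher, and at 24 h 0, 6 and 8 were lower and 0, 1 and 1 higher. The alarmin subunits S100A8 and S100A9 fell with S + D at 72 h, S100A8 from 320.4 ± 206 to 1.25 ± 1.38 CPM and S100A9 from 1596 ± 410.3 to 36.7 ± 20.0 CPM. The acute-phase genes SAA1, with Sal at 72 h (-4.21 ± 0.43), and SAA2, with Sal (-3.90 ± 0.30), Das (-4.58 ± 0.32) and S + D (-5.02 ± 0.32), fell as well, and TNFAIP2 fell with Das at 24 h (-1.21 ± 0.22). SAA1 and SAA2 are near-identical genes whose reads may have been split. At 24 h the numbered libraries gave more calls for this list, 6, 10 and 10 lower and 1, 1 and 2 higher. These libraries also called more of all genes, 3828, 6382 and 9442 in either direction against 1109, 2268 and 5498 over all 4. In the fits of all 4 libraries 26.8%, 9.36% and 27.9% of all genes were lower at 72 h with Sal, Das and S + D, and 2.23%, 6.88% and 16.5% at 24 h.

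Of 10 genes that control the decay of cytokine mRNAs, 0, 3 and 5 were lower and none higher at 24 h with Sal, Das and S + D, and 4, 3 and 3 were lower and 1, 0 and 2 higher at 72 h. The S + D counts at 72 h were near the shares over all genes (27.9% lower and 27.0% higher). Without the unnumbered libraries 2, 6 and 6 were lower and 1, 0 and 1 higher at 24 h, and 5 were lower with Das at 72 h. ZFP36, or tristetraprolin, which binds AU-rich elements, fell at 24 h with Das (-0.49 ± 0.10) and S + D (-0.65 ± 0.10), and its relatives ZFP36L1 and ZFP36L2 fell at 72 h with S + D (-1.64 ± 0.22 and -1.69 ± 0.11). KHSRP fell with Das (-0.43 ± 0.09) and S + D (-0.59 ± 0.09) at 72 h, ELAVL1 fell with Das at 72 h (-0.39 ± 0.09), and RC3H2, or roquin-2, rose with Sal at 72 h (0.63 ± 0.12). Of 13 genes of interleukin-1 processing, 9 were tested at 24 h, with 1, 2 and 1 higher and 0, 2 and 3 lower, and 10 at 72 h, with 3, 0 and 4 higher and 4, 2 and 4 lower. The Sal and S + D counts at 72 h stand against 26.3% and 27.0% of all genes higher and 26.8% and 27.9% lower. Without the unnumbered libraries 2, 2 and 3 were higher and 2, 4 and 4 lower at 24 h. NLRP1, an inflammasome sensor of epithelia, rose from 0.504 ± 0.177 CPM at 72 h to 39 ± 5.1 CPM with Sal and 23.2 ± 6.12 CPM with S + D, and CASP5 from 0.117 ± 0.0863 to 2.46 ± 1.57 and 1.45 ± 0.621 CPM. PYCARD, the inflammasome adaptor ASC, fell from 33.1 ± 1.87 CPM to 4.24 ± 1.93, 11.4 ± 4.38 and 5.87 ± 1.78 CPM. CAPN1, a calpain protease, fell with S + D at 24 h (-0.87 ± 0.09) and Das at 72 h (-0.66 ± 0.11), while CASP4 (0.59 ± 0.09) rose with S + D and GSDME (0.88 ± 0.22) with Das at 24 h.

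**Figure D5:**
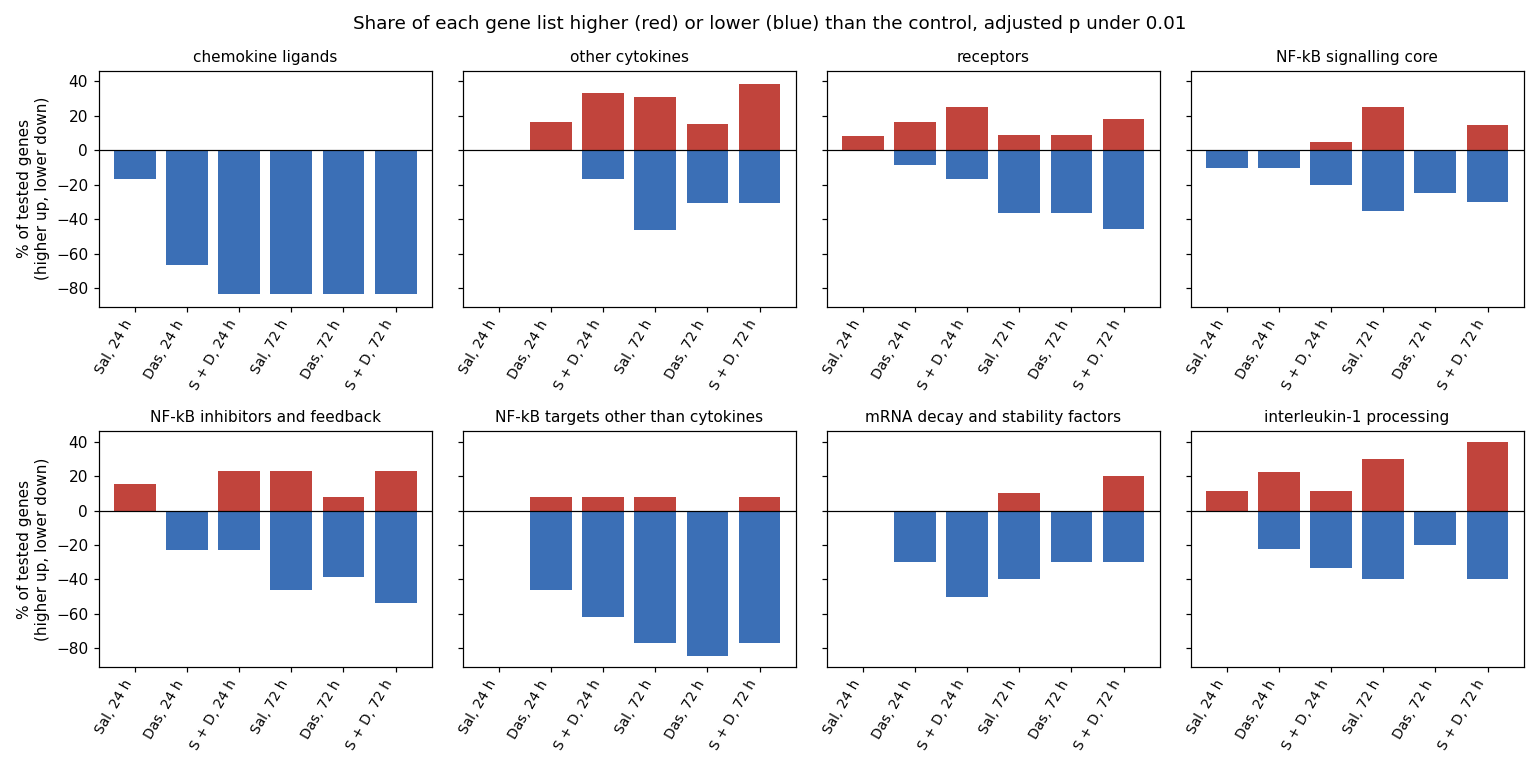
Share of the tested genes of each of the 8 lists (percent, tested genes as the base) called higher (red, upward) or lower (blue, downward) than the control at an adjusted p under 0.01, by treatment and time. Bars for chemokine ligands reach below 0 only, 5 of 6 genes in all 72 h comparisons, and bars for NF-kB targets other than cytokines are mostly downward.

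As a description, the genes whose log2 CPM followed each member best over the 8 condition means were listed, with Pearson's r over those means and over the 32 libraries, which share treatments and the unnumbered libraries. Among 17227 genes CXCL3 was nearest to TNF (r = 0.962 over means, 0.885 over libraries), CXCL2 to RELB (0.939 and 0.745), CCL20 to RUNX2 (0.973 and 0.677), CXCL8 to ARHGEF2 (0.984 and 0.544), CXCL1 to ALOX5AP (0.966 and 0.724), LIF to PDZK1 (0.997 and 0.35), IL6 to TIMP4 (0.95 and 0.559) and TNFAIP3 to ANKRD33B (0.85 and 0.694). The members themselves followed each other to differing extents. CXCL1 and CCL20 had r = 0.941 over means and 0.871 over libraries, CXCL8 and CCL20 0.931 and 0.841, and CXCL8 and LIF 0.917 and 0.888, while IL6 was negative against CXCL1 (-0.31), CXCL8 (-0.52), CCL20 (-0.49) and LIF (-0.68) over means, and TNFAIP3 and LIF were near 0 (0.0438).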

How the data were processed

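Per the deposited table, the values were raw counts of reads per Ensembl gene, 48804 genes in 32 libraries, made by the authors. The submitters' processing notes name bcl2fastq 2.19, STAR 2.5.2, Cufflinks 2.1.1, DESeq2 (no version) and the build GRCh37, while the counting program and its strand setting are not given in the sources used here. Column names were matched to sample titles, and the columns without a replicate number were matched by condition only. Gene symbols and exon lengths came from the GRCh37 annotation.

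Counts were scaled by TMM and tested with edgeR 4.0.16 (R 4.3.3), quasi-likelihood F-test, after filterByExpr with a minimum count of 10, in 1 fit per time (16 libraries) and, for comparisons between times, in 1 fit over all 32. P-values were adjusted by Benjamini-Hochberg over all genes tested, and a gene was called at an adjusted p under 0.01. CPM values are counts scaled to the TMM-adjusted library size. SE values were derived from the test, as the absolute log2 fold change divided by the square root of the F statistic. Members with too few reads were tested by exact permutation of the CPM values (scipy 1.17.1). The interaction was the S + D effect minus the sum of the Sal and Das effects. P-values set each difference against the spread between libraries of the same condition, estimated per gene over all conditions of the fit. Depth limits the low members, whose counting error is wide.

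Named list genes were, for each list and each comparison with the control, up to 3 called genes with the largest absolute log2 fold change and a mean of at least 1 CPM. The lists, like the members, were chosen with earlier results of these data known. The scripts were tested on simulated counts. For Sal against the control at 72 h, 42 of 100 genes given a log2 change of 1 were called, and 86 of 100 given 2. A member not called is thus not shown to be unchanged. In the check of pairing, deviations of same-numbered libraries correlated at 0.135 to 0.321 at 24 h and -0.03 to 0.253 at 72 h with the unnumbered libraries in the means, but at -0.08 to 0.099 and -0.198 to 0.077 among numbered libraries only, so numbers 1 to 3 were not taken as pairs. Blocked values are given where they changed a call. The block also called more of all genes in every comparison.

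Alternatives were RLE scaling, no filter on low counts, a replicate block, numbered libraries only, a term for the unnumbered libraries, a fit of the compared groups only, a fit of all 32 libraries, DESeq2 1.42.0, other thresholds and leaving out each library. Further settings for the members with few reads (numbered libraries, raw totals and RLE) were chosen after seeing the data.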

Additional observations from a re-analysis of the deposited data

Results flagged for a closer look

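In 13 of the 64 groups of 4 libraries with enough reads, 1 library stood apart from the other 3 by Dixon's criterion (its gap to the nearest library over the range of all 4), and in all 13 it was the unnumbered one, on the high side. Chance marks about 1 in 20 groups. For LIF these libraries were at 96.3 CPM in the 24 h control, 47.4 CPM with Sal at 24 h, 13.2 CPM with S + D at 24 h and 57.2 CPM in the 72 h control. For CXCL8 they were at 11.3 CPM in the 24 h control, 1.49 CPM with Das at 24 h and 14.9 CPM in the 72 h control. CXCL1 in the 24 h control (5.48 CPM), CCL20 in the 24 h control (2.35 CPM) and with Das at 72 h (0.318 CPM), CXCL3 with Das at 72 h (0.392 CPM), IL6 with S + D at 72 h (0.533 CPM) and TNFAIP3 with S + D at 24 h (27.7 CPM) made up the rest. What set these libraries apart was not tested.

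The effect of Sal differed between the times by the test of the difference itself for CXCL1 (-3.08 on the log2 scale, 72 h minus 24 h) and CCL20 (-3.11).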

How the results depend on the processing

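No called fold change reversed under any alternative, and the 42 changes of sign were all in fold changes not called in either fit. RLE scaling moved no count of members called by over 1.5 times. The counts that moved are given here. With a replicate block, Sal at 24 h gave 2 calls in place of 0, the 24 h interaction 1 in place of 0, S + D against Sal at 72 h 2 in place of 1, control time 1, and the responses between times 4 (Sal, in place of 2), 1 (Das) and 1 (S + D), where the last 2 and control time were 0. The block changed no other count by over 1.5 times. All genes called rose with the block too, in the same order. They were 3055 in place of 1109, 117 of 5, 1227 of 502 and 1461 of 475. For the responses to Sal, Das and S + D the block called 5808, 261 and 5013 of all genes, in place of 3766, 39 and 2805. In numbered libraries only, the counts were 1 (Sal, 24 h), 3 (S + D against Das, 24 h, in place of 1), 3 (24 h interaction), 4 (S + D against Das, 72 h, in place of 2), 2 (control time), and 4, 3 and 2 (responses to Sal, Das and S + D). All genes called in these comparisons rose too, in the same order. They were 3828 in place of 1109, 5351 of 1388, 827 of 5, 6047 of 5348 and 1880 of 475. For the responses they were 6705, 607 and 5372 in place of 3766, 39 and 2805. With a term for the unnumbered libraries the counts of members were 2 (Sal, 24 h), 2 (24 h interaction), 3 and 4 (S + D against Sal and Das, 72 h), 1 (control time), and 4, 1 and 1 (responses). In the same order that fit called 3628, 232, 1403, 7296, 1555, 5946, 298 and 5164 of all genes. A fit of the compared groups only gave 1 (Das, 24 h, in place of 4), 1 (S + D against Sal, 24 h, in place of 2), 4 (Das, 72 h, in place of 7) and 1 (S + D against Das, 72 h), where fewer libraries set the spread. DESeq2 gave 1 for the 24 h interaction, with an adjusted p only for CXCL1, LIF and TNFAIP3. It gave 2 for S + D against Sal at 72 h and 1 for the response to Das. Of all genes DESeq2 called 147, 1120 and 167 in these comparisons. A fit of all 32 libraries gave 3 and 1 for S + D against Sal and Das at 72 h, and no filter gave 2 for the former. With an absolute log2 fold change above 1.5 also required, counts were 2 (S + D, 24 h, in place of 4), 1 and 0 (S + D against Sal and Das, 24 h) and 0 (S + D against Das, 72 h). At an adjusted p under 0.05 they were 1 (Sal, 24 h), 1 (24 h interaction), 3 and 4 (S + D against Sal and Das, 72 h), 1 (response to Das) and 1 (response to S + D). The count of all genes at that cutoff is not given here.

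Leaving out 1 library at a time gave 1 to 3 calls for Das and 2 to 5 for S + D at 24 h, 1 to 2 for S + D against Sal at 24 h, 4 to 7 for Das at 72 h, 0 to 1 and 1 to 4 for S + D against Sal and Das at 72 h, 0 to 1 for control time, and 2 to 4, 0 to 1 and 0 to 1 for the responses to Sal, Das and S + D. Why the counts moved was not tested. IL6 with S + D at 72 h, below the filter, had an exact permutation p of 0.1 in numbered libraries (the smallest possible for 3 against 3) and 0.0857 with raw totals. Depth limits IL1A, IL1B and IL6, with at most 3, 5 and 40 reads a library.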
